A study of Homo sapiens with 10 samples.

Results

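The comparison described here is the earliest one in a time course of dasatinib in MDA-MB-231 cells, 6 h of drug against untreated cells. Its members were all genes that passed a filter on low counts in the 4 libraries concerned, 14476 of the 36687 genes in the deposited table, and the other 22211 were not tested. MDA-MB-231 is an established human breast adenocarcinoma line, of the basal B type of triple-negative breast cancer, labelled WT in every library. Both groups held 2 biological replicates: untreated cells collected at 0 h, titled Sham in the labels, and cells collected after 6 h of dasatinib. The treatment field of the 0 h libraries names the drug as well, and they were taken as untreated from their titles and library names. The labels give no dose, and the study's legend for this experiment names 100 nM. Every later group of the series, at 12, 24 and 48 h, was also treated. No untreated culture was collected at 6 h, so the drug and the hours in culture cannot be told apart.

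Dasatinib binds the ATP site of the SRC family kinases, the ABL kinases and several receptor kinases. SRC family kinases sit at focal adhesions and pass signals from integrins and growth factor receptors to the ERK, PI3K-AKT and YAP pathways. YAP and its relative TAZ enter the nucleus when cells are spread and under tension, and they switch on *CCN1*, *CCN2* and *ANKRD1* through the TEAD factors. Messages of this kind are short-lived, so that their levels can follow a change of signal within hours. Interferon-stimulated genes, a further group that some breast cancer lines express without infection, are driven by factors that interferon receptors activate.

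The 4 libraries held between 43432997 and 46592728 counts. Mitochondrially encoded messages took 4.91 to 5.72% of the counts, with overlapping groups, and cytosolic ribosomal protein messages took 6.69 and 6.68% of the untreated libraries and 7.43 and 7.49% of the 6 h libraries. Levels are given as CPM, counts scaled to a common library size. The correlation of log2 CPM was 0.9948 between the untreated replicates, 0.9954 between the 6 h replicates and 0.9777 to 0.9807 between groups. *VIM*, the mesenchymal intermediate filament, lay at 1216 to 1389 CPM, and *ESR1*, *PGR* and the epithelial cadherin *CDH1* had at most 16 counts in any of the 4 libraries, while the basal keratin *KRT5* was at 0. Not all markers went this way. The luminal keratins *KRT8*, *KRT18* and *KRT19* lay at 380.6 to 492.4, 276.1 to 318.2 and 101.7 to 164.6 CPM, and the mesenchymal cadherin *CDH2* had at most 14 counts. Of 21 haematopoietic markers, 5 could be tested and *LAPTM5* alone passed the test, at 116 and 115 CPM at 0 h against 134 and 139.6 CPM at 6 h, and it lost the call without the first or second 0 h or the second 6 h library (edgeR adjusted p = 0.0752, 0.114 and 0.113). The list's summed level was 118 CPM in both 0 h libraries and 136 and 143 CPM at 6 h, nearly all of it *LAPTM5*, with *CD3D*, *CD3E* and *MS4A1* at 0. The endothelial markers (7 of 12 tested, *EGFL7* higher and *ROBO4* lower) summed to 174 to 206 CPM and the fibroblast markers (4 of 12 tested, *FBLN1* higher) to 19.3 to 27.8 CPM. The part of these cell types in the results was not tested, and the last 3 calls also rested on single libraries. *EGFL7* missed the threshold without the second 6 h library (edgeR adjusted p = 0.199), *FBLN1* without the first (edgeR adjusted p = 0.128) and *ROBO4* without either 6 h library or the first 0 h library (edgeR adjusted p = 0.228, 0.0803 and 0.105). The cultures were of a single established line, and their titles name MDA-MB-231 cells alone. In a bulk sample fewer cells of a type and less RNA per cell cannot be told apart.

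After 6 h, 1386 genes were higher and 1580 were lower at an adjusted p under 0.05, which is 9.57% and 10.9% of the genes tested. The test was edgeR's quasi-likelihood test on the 4 libraries, adjusted by Benjamini-Hochberg over all 14476 genes. In each of these genes both 6 h libraries lay beyond both 0 h libraries. With 2 libraries a group a call nearly requires this, so it adds no support. Some genes that were not called, such as *CCND1* and *DIAPH2*, also had non-overlapping groups. Most differences were small. Of the genes that were higher, 868 differed by less than 1.5-fold, as did 1155 of those that were lower, and 184 and 117 differed by 2-fold or more. The median log2 fold change was 0.48 among the former, -0.41 among the latter and -0.00011 over all genes. The counts depend on which libraries set the spread. A fit over all 10 libraries of the series called 195 genes higher and 235 lower, 2.73% of the 15727 genes it tested, and 429 of these 430 were called in the same direction by the fit on 4. Among the other libraries the first 12 h replicate, with 4.24% of its counts in ribosomal protein messages against 7.18% in the second, was the one that stood apart, and without the 12 h libraries 1609 genes were higher and 1601 lower. Below, the number of members that also passed in the fit over 10 libraries is given beside the main lists. Without the second 6 h library, 855 genes were higher and 1051 lower.

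**Figure D1:**
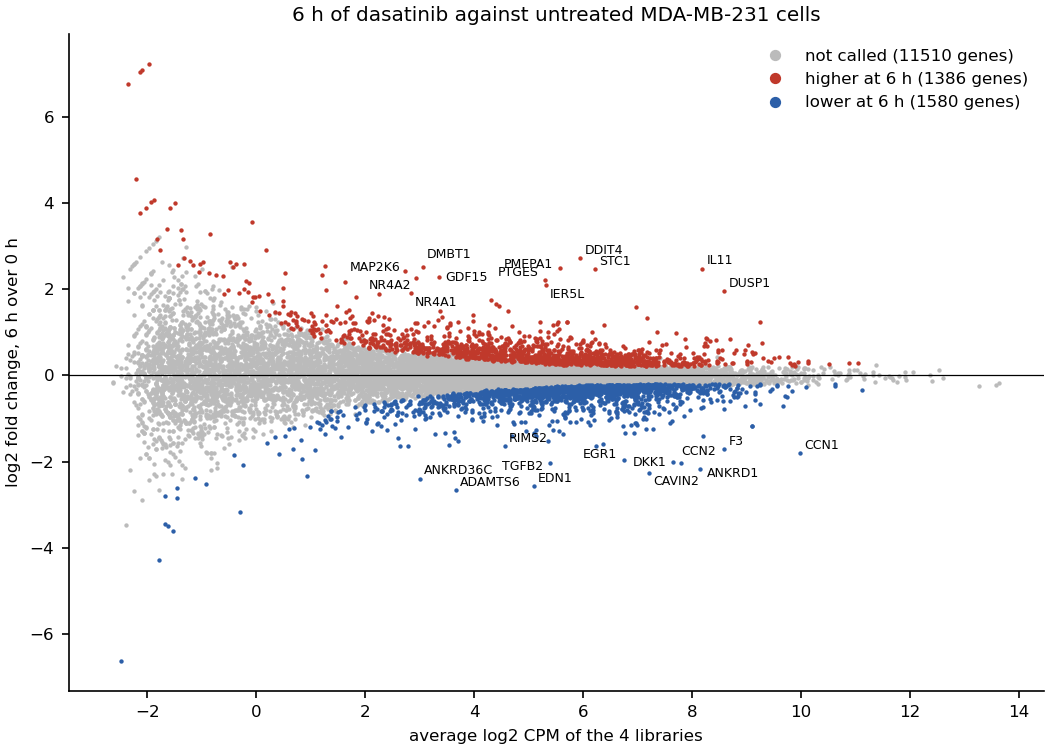
The log2 fold change of 6 h over 0 h (vertical axis) against the average log2 CPM of the 4 libraries (horizontal axis), 1 point per gene tested. Red points are the 1386 genes that were higher, blue points the 1580 that were lower, and the labels mark the 12 genes of at least 2 log2 CPM with the greatest change in each direction.

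The 12 genes with the greatest rise among those of at least 2 log2 CPM were led by *DDIT4*, which encodes an inhibitor of mTORC1. It had 15.1 and 18.5 CPM at 0 h against 109.9 and 113 CPM at 6 h, a 6.55-fold rise (log2 fold change 2.71, SE 0.099, edgeR adjusted p = 3.56e-09). *PMEPA1*, a TGF-beta target that dampens the pathway, rose from 15.1 and 14.2 to 81.1 and 86.9 CPM, 5.66-fold. *IL11*, a cytokine of the IL-6 family, rose from 86.8 and 96.3 to 497 and 533 CPM, 5.56-fold. These were all abundant messages at 6 h, and the replicates differed far less than the groups. *STC1*, the secreted glycoprotein stanniocalcin, rose from 22.03 and 24.9 to 128 and 134 CPM. *DUSP1*, a phosphatase that inactivates p38, JNK and ERK, rose from 169.7 and 157 to 647 and 631 CPM. *PTGES*, the terminal synthase of prostaglandin E2, rose from 14.9 and 13.9 to 63.4 and 70.97 CPM. Less abundant were *DMBT1* (2.38 and 2.66 to 12.98 and 16.4 CPM), the p38-activating kinase *MAP2K6* (2.24 and 2.02 to 11.8 and 11.1), the stress cytokine *GDF15* (2.74 and 4.36 to 18.99 and 16.2) and the nuclear receptors *NR4A2* (2.38 and 2.99 to 12.9 and 13) and *NR4A1* (3.02 and 3.15 to 11.6 and 11.7). *IER5L* had unequal untreated replicates of 19.2 and 11.97 CPM, both below the 6 h libraries at 65.3 and 68.8 CPM. Of these 12 genes, *GDF15* alone missed the threshold in the fit over 10 libraries (adjusted p = 0.0551).

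The 12 genes with the greatest fall were led by *ADAMTS6*, a secreted metalloprotease. It had 21.4 and 23.5 CPM at 0 h against 3.82 and 3.40 CPM at 6 h and was 6.29-fold lower (log2 fold change -2.65, SE 0.15, edgeR adjusted p = 1.87e-07). *EDN1*, the vasoconstrictor peptide endothelin, fell from 59.5 and 60.9 to 10.9 and 9.60 CPM, 5.93-fold. *CAVIN2*, a coat protein of caveolae, fell from 239 and 267 to 53.1 and 54.2 CPM, 4.76-fold. Non-overlapping groups were a condition for entering either set of 12 genes, so their separation is no result. *TGFB2*, the ligand TGF-beta 2, fell from 70.03 and 68.4 to 15.9 and 18.2 CPM. *DKK1*, a secreted WNT antagonist, fell from 336 and 330.1 to 87.9 and 79.2 CPM. *F3*, tissue factor, fell from 624 and 589.9 to 201 and 176 CPM. The other members of the 12 were *ANKRD1*, *CCN1*, *CCN2* and *EGR1*, described with their groups, *RIMS2*, at 34.3 and 39.6 and then 11.7 and 12.2 CPM, and *ANKRD36C*, at 13.1 and 14.5 and then 3.002 and 2.32 CPM. *ANKRD36C* has near-identical paralogs, so its counts are uncertain. All 12 were also lower in the fit over 10 libraries.

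The messages of the drug's own targets were called at shares not far from those of all genes, 9.57% higher and 10.9% lower. In the SRC list 7.14% were higher and 14.3% lower, and among other targets 4.35% and 8.7%. Log2 fold changes, called or not, ran from -0.43 to 1.13 and from -0.84 to 1.62. Of 14 tested members of the SRC family and its regulators, *SRC* was higher and *FYN* and *YES1* were lower, and none was called in the fit over 10 libraries. *SRC* had 44.1 and 50.4 CPM at 0 h against 63.8 and 71.3 CPM at 6 h (log2 fold change 0.50, SE 0.092, edgeR adjusted p = 0.00245), and *FYN* had 56.8 and 49.8 CPM at 0 h against 39.7 and 40.4 CPM at 6 h (edgeR adjusted p = 0.00648). *YES1* missed the threshold whichever of the 4 libraries was left out, so that *FYN* alone was then lower. Of 23 tested members among other dasatinib targets, *ABL1* was higher and *ABL2* and *EPHA2* were lower, with 4 higher and 3 lower without the second 0 h library and 3 higher without the first 6 h library. *ABL2*, the ABL paralog that binds actin, fell from 184 and 182 to 102 and 105 CPM, 1.79-fold, and the Eph receptor *EPHA2* from 469 and 476 to 304 and 331 CPM. *ABL1* lay at 127 and 133 and then 146 and 166 CPM and lost its call without the second 6 h library (edgeR adjusted p = 0.24) or the first 0 h library (edgeR adjusted p = 0.109). Kinase activity and protein were not measured here.

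Most measured targets of YAP and TEAD fell. Of 39 tested members of a list of 40, 28 were lower (71.8%, against 10.9% of all genes) and *FOXF2* alone was higher, a call lost without the second 6 h library (edgeR adjusted p = 0.191), with a median log2 fold change of -0.60, and 14 were also lower in the fit over 10 libraries. The summed level of the list was 8929 and 9036 CPM at 0 h and 5105 and 5286 CPM at 6 h. *CCN1*, the matricellular protein also known as CYR61, was the most abundant of those with the greatest change, at 1548 and 1669 CPM at 0 h against 480.2 and 459 CPM at 6 h, and was 3.46-fold lower (log2 fold change -1.79, SE 0.072, edgeR adjusted p = 7.20e-09). *CCN2*, its relative known as CTGF, had 379.8 and 358 CPM at 0 h against 92.3 and 89.04 CPM at 6 h, 4.11-fold lower. *ANKRD1*, a nuclear and sarcomeric ankyrin protein, had 461 and 497 CPM at 0 h against 104 and 111 CPM at 6 h, 4.51-fold lower. The replicates of each gene lay close together beside these differences. *AMOTL2*, *LATS2*, *NF2*, *PTPN14* and *AJUBA*, which act back on the Hippo pathway, were among the 28, with *AMOTL2* at 169 and 162 CPM at 0 h against 84.4 and 94.5 CPM at 6 h and *NF2* at 47.4 and 50.4 CPM at 0 h against 27.5 and 30.6 CPM at 6 h. *AREG*, *FSTL1*, *NT5E*, *TEAD1* and *AMOTL1* were among the 10 members that were not called.

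Of 26 tested members of the Hippo core and the TEAD factors, 9 were lower and 2 higher, with 3 lower in the fit over 10 libraries and 0 higher (edgeR) without the second 6 h library. Of this list 34.6% were lower and 7.69% higher, against 10.9% and 9.57% of all genes. *FRMD6*, an upstream member at the cell membrane, fell from 312 and 314 to 164 and 164 CPM. *YAP1* itself had 229 and 240.4 CPM at 0 h against 199.9 and 189.9 CPM at 6 h, 1.22-fold lower (edgeR adjusted p = 0.0107), while *WWTR1*, which encodes TAZ, had 154 and 151 CPM at 0 h against 177 and 173 CPM at 6 h and did not pass (edgeR adjusted p = 0.0691). Of 13 tested caveola genes, 6 were lower (46.2%) and 1 higher (7.69%), and 5 of the former were also lower in the fit over 10 libraries. The higher gene, *CAVIN3*, missed the threshold without the second 0 h, the first 6 h or the second 6 h library (edgeR adjusted p = 0.0919, 0.0559 and 0.0658). *CAV1*, the main coat protein, fell from 1038 and 1026 to 639 and 646 CPM and *CAV2* from 105 and 92.4 to 71.5 and 64.5 CPM. *CAVIN1*, at 739 and 919.7 CPM at 0 h against 680.2 and 845 CPM at 6 h, had overlapping groups.

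The promoters of the YAP and TEAD targets were searched on both strands for the TEAD core GGAATG. RefSeq promoter windows, here the 250 bases before each annotated gene start in GRCh38.p14, were matched by symbol for 11415 of the 14476 tested genes, which had 16539 windows, and 9.97% of these held the core. Of the 28 lower members, 21 had a window, and 10 of their 27 windows (37%) held it, against 12 of 36 (33.3%) for all tested members. *F3* was among those without a match. The windows of *CCN2* and *ANKRD1* are shown because both were among the 12 genes with the greatest fall and held more than 1 match, 3 and 2 respectively. Capitals mark the TEAD core in either orientation, and each sequence is given 5′ to 3′ along its gene's strand.
*CCN2* (chr6:131951373-131951622, minus strand): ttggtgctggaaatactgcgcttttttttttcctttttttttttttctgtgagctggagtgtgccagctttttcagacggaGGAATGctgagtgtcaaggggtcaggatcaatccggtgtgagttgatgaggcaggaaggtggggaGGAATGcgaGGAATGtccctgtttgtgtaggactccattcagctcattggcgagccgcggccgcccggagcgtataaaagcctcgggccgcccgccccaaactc
*ANKRD1* (chr10:90921088-90921337, minus strand): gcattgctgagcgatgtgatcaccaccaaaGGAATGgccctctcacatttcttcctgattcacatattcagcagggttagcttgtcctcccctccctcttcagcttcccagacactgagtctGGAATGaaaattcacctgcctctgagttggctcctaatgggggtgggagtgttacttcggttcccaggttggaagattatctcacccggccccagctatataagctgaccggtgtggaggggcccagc
In *CCN2* the 3 matches began between 169 and 95 bases before the gene start, and in *ANKRD1* at 220 and 128 bases. A match of letters is a description and shows no binding.

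The interferon response was the list with the highest share of lower members. It held 53 symbols, with *RIGI* also under its former symbol. Of its 51 tested members, 39 were lower (76.5%) and only *IRF2* was higher, with a median log2 fold change of -0.63, and 24 were also lower in the fit over 10 libraries. The summed level of the list was 5838 and 5939 CPM at 0 h and 3599 and 3711 CPM at 6 h. *OAS2*, which makes the oligoadenylate that activates RNase L, had 118 and 115 CPM at 0 h against 38.4 and 37.8 CPM at 6 h, 3.10-fold lower (log2 fold change -1.63, SE 0.075, edgeR adjusted p = 3.07e-08). *IFI44L* had 128 and 126 CPM at 0 h against 44.9 and 40.1 CPM at 6 h, 3.02-fold lower. *IFIT1*, which binds foreign RNA caps, had 415 and 459.9 CPM at 0 h against 168 and 168 CPM at 6 h, 2.63-fold lower. In all 3 the 6 h libraries lay at under 0.5 of the 0 h libraries. *RIGI*, the cytosolic RNA sensor, fell from 199.8 and 210.4 to 87.4 and 88.7 CPM. *IRF2*, at 32.6 and 28.8 CPM at 0 h against 39.5 and 37.5 CPM at 6 h, lost its call without either 6 h library or the second 0 h library (edgeR adjusted p = 0.196, 0.0798 and 0.197). *IRF1*, *IRF3*, *IRF9*, *BST2* and *IFI27* were among the 11 members that were not called.

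The promoter windows of these genes were searched on both strands for the core of the interferon-stimulated response element, written here as GAAANNGAA. Of the 39 lower members, 32 had a window, and 25 of their 42 windows (59.5%) held the core, as did 29 of 51 (56.9%) for all tested members, against 5.69% of all windows of tested genes. The windows of *IFIT1* and *IFI44L* are shown as those of the members with strong falls and more than 1 match, and the capitals mark the core.
*IFIT1* (chr10:89392373-89392622, plus strand): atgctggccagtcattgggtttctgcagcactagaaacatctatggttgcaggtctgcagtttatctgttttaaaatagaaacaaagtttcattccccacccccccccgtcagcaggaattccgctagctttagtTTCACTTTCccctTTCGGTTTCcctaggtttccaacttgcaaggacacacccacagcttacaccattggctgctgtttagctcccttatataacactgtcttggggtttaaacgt
*IFI44L* (chr1:78620198-78620447, plus strand): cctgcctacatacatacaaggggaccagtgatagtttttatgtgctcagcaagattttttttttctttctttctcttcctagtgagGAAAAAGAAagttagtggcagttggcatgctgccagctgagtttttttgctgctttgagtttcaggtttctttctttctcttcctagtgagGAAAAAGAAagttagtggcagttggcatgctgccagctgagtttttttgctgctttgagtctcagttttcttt
The matches began 115 and 102 bases before the start in *IFIT1* and 164 and 73 bases before it in *IFI44L*.

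**Figure D2:**
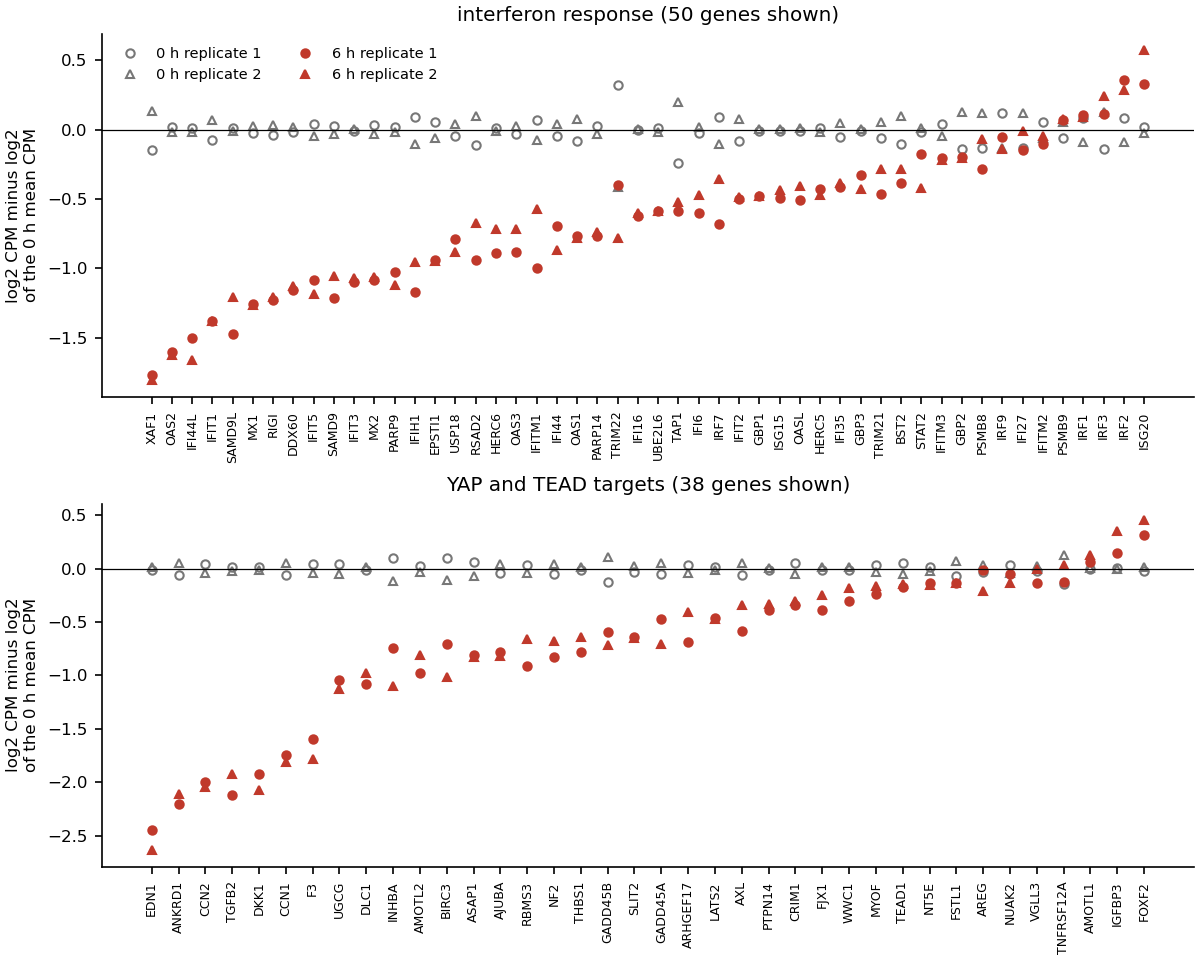
Tested members of the interferon response list (upper panel) and of the YAP and TEAD target list (lower panel), as log2 CPM minus the log2 of the untreated mean (0.1 CPM added), in order of log2 fold change. Open grey symbols are the 0 h libraries and filled red symbols the 6 h libraries, circles replicate 1 and triangles replicate 2, and for most members both red symbols lie below both grey ones.

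Immediate early genes moved in both directions. Of 42 tested AP-1 and immediate early genes, 14 were higher (33.3%, against 9.57% of all genes) and 12 lower (28.6%), with 5 in each direction in the fit over 10 libraries. *EGR1*, the zinc finger factor induced by ERK and SRF, fell from 181 and 171 to 45.4 and 46.1 CPM, 3.88-fold (log2 fold change -1.96, SE 0.073, edgeR adjusted p = 3.56e-09). *FOS* fell from 19.5 and 16.7 to 5.91 and 5.99 CPM, *JUN* from 223 and 210.1 to 127 and 139 CPM, and *KLF6* from 194 and 196 to 98.3 and 98.8 CPM. *FOSL1* and *FOSL2*, which both encode FOS relatives, went opposite ways. *FOSL1* fell from 371 and 355 to 244 and 250 CPM, whereas *FOSL2* rose from 212 and 235 to 384 and 443 CPM. The members that rose also included *NR4A1*, *NR4A2* and *NR4A3*, *ID1*, *ID2* and *ID3*, *CEBPD* and *JUND*.

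Genes that respond to ERK were also divided. Of 39 tested, 14 were lower (35.9%) and 7 higher (17.9%), with 6 and 4 in the fit over 10 libraries. *DUSP5*, a nuclear ERK phosphatase, fell from 147 and 144 to 90.1 and 90.9 CPM, the EGFR ligand *EREG* from 139.7 and 136 to 86.6 and 81.6 CPM, and *HBEGF*, another such ligand, from 154 and 156 to 98.9 and 95.8 CPM. *DUSP4*, the nuclear phosphatase of ERK and JNK, rose from 244 and 247 to 378 and 418 CPM. *DUSP6*, the cytoplasmic ERK phosphatase, had 208 and 225 CPM at 0 h against 213 and 196 CPM at 6 h with overlapping groups (edgeR adjusted p = 0.382), and *CCND1*, the G1 cyclin, had 728 and 686 CPM at 0 h against 588 and 647 CPM at 6 h and just missed the threshold (edgeR adjusted p = 0.0562). Of 19 tested ETS family factors, 3 were lower (1 without the second 6 h library) and 3 higher. That is 15.8% in each direction, against 10.9% of all genes lower and 9.57% higher. *ETS1* (chr11:128458761-128587558, minus strand, GRCh38), the factor on which the study centred, had 175 and 177 CPM at 0 h against 84.5 and 81.4 CPM at 6 h, 2.15-fold lower (log2 fold change -1.10, SE 0.069, edgeR adjusted p = 5.35e-07), and it was also lower in the fit over 10 libraries (edgeR adjusted p = 6.30e-04). *ETS2* lay at 43.96 and 43.5 and then 37.4 and 32.5 CPM and lost its call without the second 6 h library (edgeR adjusted p = 0.263). Of 36 tested SRF and MRTF targets, 8 were higher (22.2%) and 6 lower (16.7%), or 3 and 8 with the trend for length and GC content removed, among them the transgelin relative *TAGLN2* (656 and 701 and then 897 and 959 CPM) and the actin cross-linker *LIMA1* (128 and 142 and then 72.1 and 67.7 CPM).

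Calls among FOXO-type and mTORC1-restraining genes were mostly of higher genes. Of 48 tested genes of the FOXO and mTORC1-restraining kind, 18 were higher (37.5%) and 4 lower, with a median log2 fold change of 0.26, and 5 and 2 passed in the fit over 10 libraries. After *DDIT4* the smallest adjusted p values among the higher members belonged to *TXNIP*, an inhibitor of glucose uptake, which rose from 83.7 and 84.6 to 221 and 208 CPM (2.52-fold, edgeR adjusted p = 1.06e-07), and the CDK inhibitor *CDKN1A*, which rose from 49.5 and 56.4 to 118 and 124 CPM (2.27-fold). *BCL2L11*, the death inducer BIM, rose from 16.8 and 13.1 to 24.5 and 26.1 CPM, and *CCNG2*, *SESN3*, *FOXO1*, *TRIB1*, *TRIB2*, *TRIB3* and *IRS2* were among the others. *FOXO3* itself fell from 46.1 and 44.01 to 30.6 and 32.3 CPM, and the insulin receptor substrate *IRS1* fell from 113 and 123 to 64.9 and 68.5 CPM while *IRS2* rose from 50.9 and 42.1 to 66.97 and 72.3 CPM. The FOXO core GTAAACA stood in 4 of 22 windows (18.2%) of the members that rose and in 7 of 60 (11.7%) of all tested members, against 2.26% of all windows. Other motifs were searched in several lists too. TGATGNAA, the C/EBP-ATF motif, stood in 2 of 24 windows (8.33%) of the stress response genes that rose. All tested members of that list had it in 9 of 55 (16.4%), against 1.73% of all windows. The E-box CACGTG stood in 13.9% of windows of lower ribosome biogenesis genes and 16.3% of all tested members, against 7.98%.

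Calls in the amino acid branch of the integrated stress response were also mostly of higher genes. Of 44 tested members, 17 were higher (38.6%) and 3 lower, with a median log2 fold change of 0.26, and 7 of the former also passed in the fit over 10 libraries. The other 24 were not called. *ATF4*, *DDIT3* and *ASNS* were not among the called members, and of the tRNA synthetases in the list only *WARS1* was. *SLC7A5* and *SLC3A2* encode the light and heavy chains of the large neutral amino acid transporter. *SLC7A5* rose from 365 and 377 to 804 and 976 CPM (2.37-fold, edgeR adjusted p = 1.34e-06) and *SLC3A2* from 239 and 274 to 441 and 479 CPM (1.77-fold). *CEBPB*, a bZIP factor, rose from 70.1 and 59.2 to 194 and 198 CPM, and the serine synthesis enzymes *PHGDH*, *PSAT1* and *PSPH* were also higher. *ATF3*, a factor of the same response, went the other way, from 11.8 and 12.9 to 6.54 and 6.26 CPM, as did *PPP1R15A*, which restores translation, from 164 and 200.5 to 125 and 125 CPM. Of 26 tested genes of the unfolded protein response, 5 were lower (3 without either 0 h library) and 1 higher, *SEC61B*, which missed the threshold without the first 0 h library or either 6 h library (edgeR adjusted p = 0.103, 0.1 and 0.0644). Of this list 19.2% were lower and 3.85% higher. The chaperone *HSPA5* fell from 761 and 769 to 489 and 486 CPM. Heat shock chaperones were called at shares under those of all genes, 5% higher and 5% lower. Of 20 heat shock chaperones tested, 1 was higher (2 without the second 0 h library) and 1 lower, *FKBP4*, which missed the threshold without the second 0 h library (edgeR adjusted p = 0.355) or the first 6 h library (edgeR adjusted p = 0.131).

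Calls among ribosome assembly genes were nearly all of lower genes, and those among ribosomal protein genes mostly of higher genes. *MYC*, which drives ribosome production, fell from 128 and 129 to 74.6 and 73.02 CPM (1.76-fold, edgeR adjusted p = 7.10e-06), and it did not pass in the fit over 10 libraries (edgeR adjusted p = 0.0567). Of 97 tested ribosome biogenesis genes, 40 were lower (41.2%) and *UBTF* alone was higher, with a median log2 fold change of -0.23. Without the second 0 h library 6 were higher, without the first 6 h library 2, and without the second 6 h library *UBTF* missed the threshold (edgeR adjusted p = 0.0572). Their changes were modest, none reached 2-fold, and 2 passed in the fit over 10 libraries. *NOC3L* fell from 121 and 118 to 62.7 and 68.2 CPM, the helicase *DDX21* from 634 and 649.7 to 381 and 417 CPM and the processome member *WDR3* from 181 and 196 to 113 and 123 CPM. Among RNA polymerase III and tRNA genes 21.4% were lower. Of 28 RNA polymerase III and tRNA genes tested, 6 were lower and 0 higher by edgeR, 3 without the first 0 h library and 2 without either 6 h library, and 0 passed in the fit over 10 libraries. Of 78 ribosomal protein genes, 26 were higher (33.3%) and 2 lower (1 without the first 6 h library), with a median log2 fold change of 0.16, and 0 passed in the fit over 10 libraries. With the trend for length and GC content removed 17 were higher, 2 were lower and the median was 0.06. Of 27 tested genes of cholesterol synthesis and uptake, 9 were lower (33.3%) and 0 higher, with *HMGCS1* at 79.2 and 78.04 CPM at 0 h against 57.2 and 55.8 CPM at 6 h.

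Of 37 tested TGF-beta and BMP genes, 14 were higher (37.8%) and 7 lower (18.9%), with 4 in each direction in the fit over 10 libraries. Among the lower members were *TGFB2*, the activin subunit *INHBB* (19.2 and 16.97 and then 7.40 and 7.43 CPM), *FST*, which traps activin (225 and 228 and then 97.8 and 94.9 CPM) and *NOG*, which traps BMPs (12.2 and 12.9 and then 6.89 and 6.85 CPM). Among receptors and latency proteins, *TGFBR1* rose from 49.9 and 47.6 to 84.4 and 83.8 CPM, *LTBP1* from 55.2 and 53.6 to 97.5 and 91.6 CPM and *LTBP4* from 138 and 127 to 208 and 198 CPM. Of the inhibitors induced by the pathway, *PMEPA1*, *SMAD6* (1.84-fold), *SMAD7* (1.73-fold), *SKI* and *SKIL* rose, whereas *SMAD3*, an effector of the pathway, was lower. Of 37 tested NF-kappaB and inflammatory genes, 6 were higher (16.2%) and 7 lower (18.9%). *BCL3*, a nuclear partner of NF-kappaB, rose from 10.9 and 10.1 to 32.4 and 33.9 CPM (3.13-fold), *NFKBIA*, its cytoplasmic inhibitor, from 43.1 and 46.6 to 76.3 and 74.9 CPM, and the chemokine *CCL2* fell from 82.5 and 79.9 to 57.01 and 48.7 CPM. *PTGS2*, which acts upstream of *PTGES* in prostaglandin synthesis, fell from 12.9 and 13.1 to 8.005 and 7.89 CPM. *IL6* had 71 and 43 counts at 0 h and 56 and 31 counts at 6 h, with overlapping CPM.

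Of 54 tested collagens and matrix glycoproteins, 12 were higher (22.2%) and 5 lower, and of 44 matrix proteases and inhibitors 14 were higher (31.8%) and 5 lower, with 1 and 3, and 2 and 2, in the fit over 10 libraries. Without the second 6 h library 7 of the collagens and glycoproteins were higher, and with the trend for length and GC content removed 9 were higher and 10 lower. *ADAM8*, a membrane protease, rose from 16.7 and 16.7 to 38.2 and 36.05 CPM (2.21-fold, edgeR adjusted p = 1.20e-05), *MMP14*, the membrane collagenase, from 93.8 and 109 to 145 and 158 CPM and *FN1*, fibronectin, from 333 and 323 to 391 and 416 CPM. *THBS1*, thrombospondin, fell from 374 and 379.8 to 219.6 and 242 CPM and *TIMP3*, an inhibitor bound to matrix, from 64.2 and 70.6 to 34.1 and 37.8 CPM. *MMP3*, the stromelysin that the study examined, was near the lower limit of measurement, with 148 and 106 counts at 0 h and 70 and 54 counts at 6 h, or 3.52 and 2.43 and then 1.63 and 1.22 CPM. It passed in the fit on 4 libraries (log2 fold change -1.08, SE 0.32, edgeR adjusted p = 0.0327) but not over 10 libraries (edgeR adjusted p = 0.446), without the first 0 h library (edgeR adjusted p = 0.205) or without the second 6 h library (edgeR adjusted p = 0.174). *MMP2* was not tested, with 0 counts in both untreated libraries and at most 4 at 6 h.

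Most adhesion and cytoskeletal genes were not called. Of 49 tested integrin and focal adhesion genes, 8 were higher and 6 lower, and of 54 filopodia and actin regulators 5 were higher and 9 lower, or 16.3% and 12.2%, and 9.26% and 16.7%, against 9.57% and 10.9% of all genes. These counts moved with single libraries. Of the integrin list 3 were lower without the second 0 h or the first 6 h library, and of the filopodia list 8 were higher without the second 0 h library, 2 were higher without the second 6 h library, and 5 were lower without the first 0 h or the second 6 h library. The small GTPase antagonist *RND3* fell from 86.3 and 85.5 to 46.2 and 40.5 CPM (2.002-fold, edgeR adjusted p = 7.28e-06), *CDC42EP3*, an effector of CDC42, from 263 and 274 to 161 and 154 CPM, *ITGB4*, a hemidesmosome integrin, from 95.8 and 94.7 to 42.9 and 59.6 CPM and the focal adhesion kinase *PTK2* from 186 and 182 to 154 and 149 CPM. *ITGA2*, a collagen receptor subunit, rose from 108 and 104 to 156 and 147 CPM and the adaptor *TNS2* from 53.7 and 55.7 to 85.03 and 101 CPM. *CDC42* (359.7 and 369 and then 311 and 329 CPM) and *MYO10*, a myosin of filopodia (137 and 135 and then 115 and 118 CPM), passed narrowly and lost the call whichever of the 4 libraries was left out. *PXN*, *RAC1*, *ACTN4*, *DIAPH2*, *MSN* and *VIM* were not called (edgeR adjusted p = 0.92, 0.319, 0.685, 0.718, 0.807 and 0.108), with log2 fold changes between -0.16 and 0.07. Of 25 tested factors and markers of the epithelial-mesenchymal transition, 4 were higher and 6 lower, and without the second 6 h library 2 were higher. Of this list 16% were higher and 24% lower. *SNAI1* had 6.57 and 6.16 CPM at 0 h against 10.3 and 10.7 CPM at 6 h and was higher, while *ZEB2* (22.96 and 23.2 and then 13.7 and 15.6 CPM), the collagen cross-linker *LOX* (37.6 and 37.4 and then 25.8 and 25.9 CPM) and the tight junction gene *CLDN1* (11.7 and 9.74 and then 3.49 and 3.42 CPM) were lower.

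The lists of growth factor receptors and ligands held more lower than higher calls. Of 15 tested members of the EGFR family list, 5 were lower (33.3%) and 0 higher (edgeR), the regulator *ERRFI1* among the former. Of 30 tested members of the list of other receptor kinases, 8 were lower (26.7%) and 4 higher (13.3%). That list also held ligands, IGF-binding proteins and the receptor substrates *IRS1*, which was lower, and *IRS2*, which was higher. In the fit over 10 libraries 2 members of the EGFR family list were lower, and 4 members of the other list were lower and 1 higher. *EGFR* fell from 425 and 419 to 321 and 327 CPM, the ligand *NRG1* from 144 and 130.4 to 85.7 and 83.5 CPM, *AXL*, a receptor tied to drug tolerance, from 960.3 and 1034 to 666 and 787 CPM, the growth factor *FGF5* from 182 and 179 to 72.8 and 72.05 CPM (2.52-fold), *PDGFC* from 213 and 207 to 118 and 119 CPM and the WNT5A receptor *ROR1* from 37.9 and 36.9 to 18.2 and 16.4 CPM. *FGFR3* rose from 6.41 and 4.25 to 10.1 and 11.5 CPM. Among semaphorins, plexins, ephrins and slits, 8 of 47 were higher (5 without the second 6 h library) and 6 lower, with the guidance cue *SEMA3A* falling from 48.9 and 52.3 to 19.9 and 20.5 CPM and *SEMA3F* rising from 6.43 and 5.74 to 16.6 and 13.2 CPM. Among Ras and Rap regulators, 6 of 53 were higher and 10 lower (6 without the first 0 h or the second 6 h library), with *RASD1* rising from 30.6 and 25.7 to 68.1 and 67.2 CPM and *RASAL2* falling from 66.4 and 68.6 to 38.1 and 38.1 CPM. Of the semaphorin list 17% were higher and 12.8% lower, and of the Ras and Rap list 11.3% and 18.9%, against 9.57% and 10.9% of all genes. Among endothelin and vasoactive peptide genes, 10 were tested, and *ECE1*, the converting enzyme, was higher and *EDN1* lower (10% each). The call of *ECE1* was lost without the first 0 h library (edgeR adjusted p = 0.152) or the second 6 h library (edgeR adjusted p = 0.209).

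Called replication genes were mostly higher and called mitotic genes mostly lower after 6 h. Of 56 DNA replication genes, 12 were higher (21.4%) and 3 lower, with a median log2 fold change of 0.12, and of 60 mitotic genes 5 were higher and 13 lower (21.7%), with a median of -0.10. In the fit over 10 libraries 0 genes of either list passed, and in every called member the change was under 1.5-fold. *PCNA*, the sliding clamp, rose from 241 and 248 to 337 and 326 CPM, whereas *CCNB1*, the mitotic cyclin, fell from 296 and 287 to 225 and 227 CPM and *ECT2*, needed for cytokinesis, from 289 and 294 to 209.7 and 201 CPM. With the trend for length and GC content removed, the mitotic list had 6 members higher and 6 lower, and the replication list had 17 higher and 0 lower by edgeR. Without the second 6 h library 3 mitotic genes were higher and 0 replication genes were lower by edgeR, and without the second 0 h library 1 replication gene was lower. Of 25 G1 cyclins and CDK inhibitors, 6 were higher (24%) and 2 lower (8%), and the kinase *CDK6* was lower, from 174 and 164 to 113 and 107 CPM. Of 19 BCL2 family members, 3 were higher and 5 lower, with 6 higher without the second 0 h library, 2 lower without the first 0 h or the second 6 h library and 3 lower without the first 6 h library. Of the BCL2 family 15.8% were higher and 26.3% lower, against 9.57% and 10.9% of all genes. The survival gene *BCL2L1* fell from 259 and 295 to 127 and 142 CPM (2.08-fold, edgeR adjusted p = 3.12e-06). Of 27 p53 targets, 4 were higher (14.8%) and 5 lower (18.5%), *PLK2* among the latter at 60.6 and 59.4 CPM at 0 h against 28.7 and 29.6 CPM at 6 h.

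Several counts of the remaining lists rested on the second 6 h library. Of 44 hypoxia and glycolysis genes, 8 were higher and 7 lower, and without that library 5 were higher. Of this list 18.2% were higher and 15.9% lower. Hexokinase *HK2* was lower, from 99.3 and 99.2 to 42.3 and 47.7 CPM (2.23-fold), and the glucose transporter *SLC2A3* higher, from 48.1 and 47.5 to 86.9 and 79.6 CPM. Of 44 lysosome and autophagy genes, 11 were higher (25%) and only *MITF* was lower, with the autophagy receptor *SQSTM1* rising from 221 and 235 to 389.9 and 439 CPM and the kinase *ULK1* from 26 and 26.9 to 43.1 and 44.5 CPM, while 2 and 1 passed in the fit over 10 libraries. Of 44 lipid genes, 7 were higher (4 without the second 0 h library and 3 without the second 6 h library) and 7 lower, including the lysophosphatidic acid receptor *LPAR1*, which fell from 82.04 and 81.7 to 39.9 and 38.7 CPM. Of 20 clock genes, 4 were higher (2 without the second 6 h library) and the repressor *CRY1* was lower, from 67.3 and 70.4 to 38.5 and 38.1 CPM. Of 27 chromatin modifiers 3 were higher and 5 lower, 0 of them higher by edgeR without the second 6 h library and 3 lower without either 0 h library or the first 6 h library, with *HDAC9* falling from 18.5 and 19.4 to 8.52 and 5.56 CPM. Of 15 Kruppel-like factors 1 was higher and 3 lower, of 12 genes of the MYC network 2 were higher (1 without the second 6 h library) and *MYC* lower, and of 13 mitochondrially encoded messages 1 was higher and 1 lower, counts that ran from 1 to 3 without single libraries. Of 20 basal B and mesenchymal markers 4 were higher (1 without the first 0 h library, 2 without the second 6 h library) and 7 lower, and of 14 luminal markers 2 were higher (1 without the first 6 h library) and 1 lower (3 without the first 0 h library, 2 without the second 6 h library). Against 9.57% and 10.9% of all genes, lipid genes had 15.9% higher and 15.9% lower, and clock genes 20% and 5%. Chromatin modifiers had 11.1% and 18.5%, Kruppel-like factors 6.67% and 20%, the MYC network 16.7% and 8.33%, and mitochondrially encoded messages 7.69% and 7.69%. Basal B and mesenchymal markers had 20% and 35%, and luminal markers 14.3% and 7.14%. *KRT8* and *KRT18*, not called, were counted in both of these marker lists. The 438 tested ZNF genes, many of which encode repressors with short-lived messages, had 19 members higher (4.34%) and 34 lower (7.76%), both shares under those of all genes. Without the second 6 h library 10 were higher and 19 lower, and without the second 0 h library 29 were higher.

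**Figure D3:**
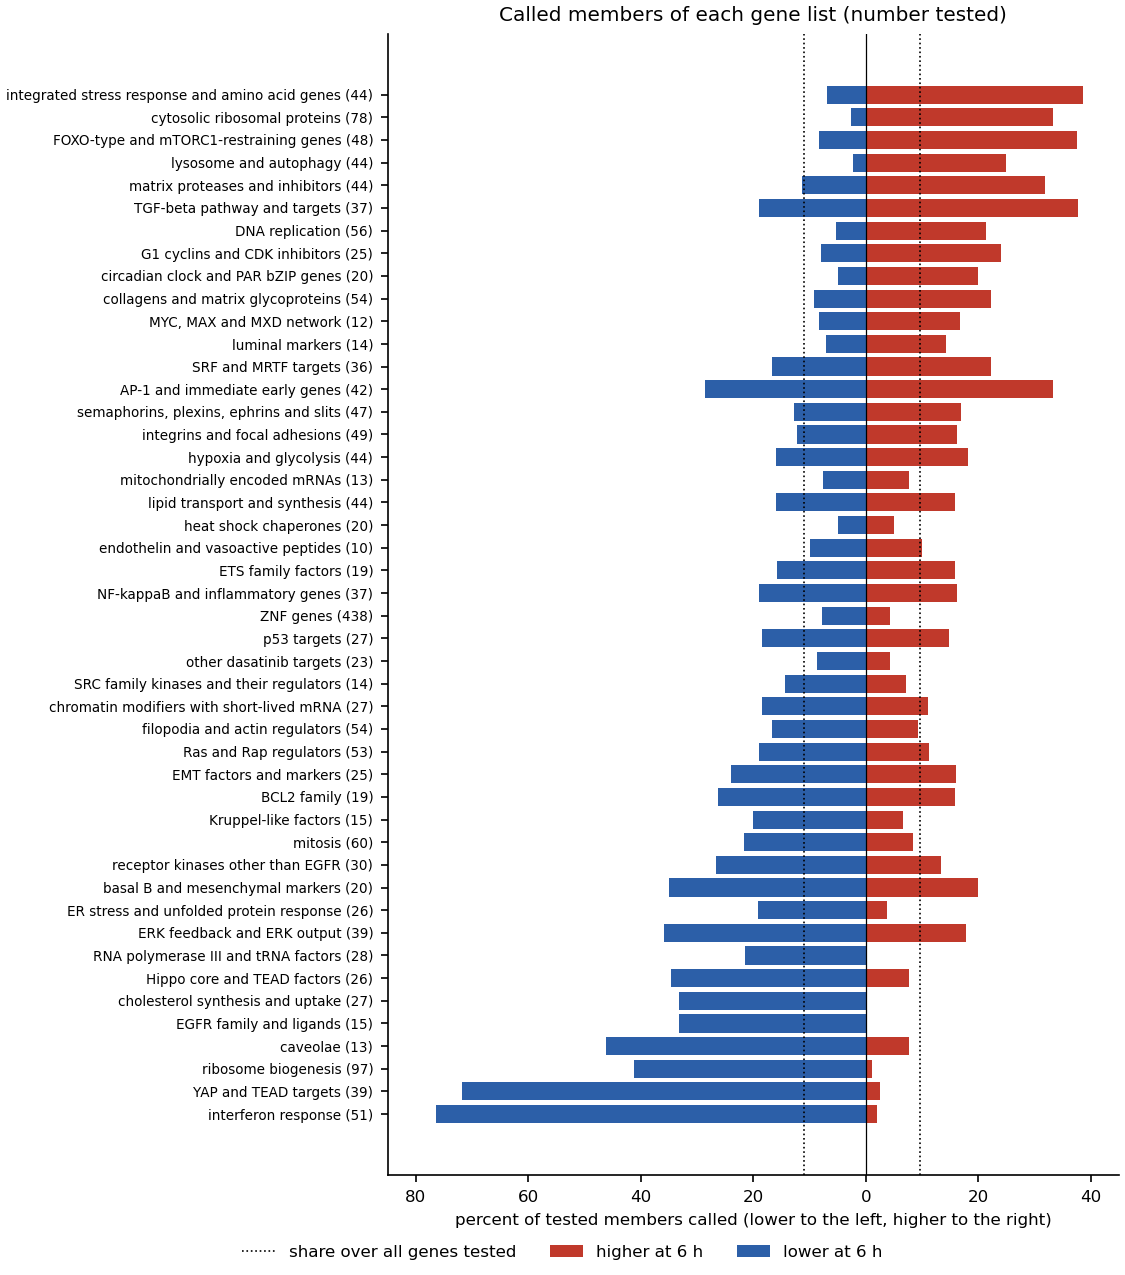
The percentage of tested members called lower (blue, to the left) and higher (red, to the right) at 6 h in each list with at least 10 tested members, with the number tested in brackets. The dotted lines mark the shares over all genes, 10.9% lower and 9.57% higher, and the interferon response and the YAP and TEAD targets lie farthest beyond them, at 76.5% and 71.8% lower.

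Set beside the later time points, the 6 h levels did not all mark the same stage. The later libraries share the untreated controls with the 6 h comparison, so only values are given. The summed interferon list was 3823 and 4385 CPM at 12 h, 6529 and 6710 CPM at 24 h and 10100 and 10080 CPM at 48 h, so that both 48 h libraries lay above the untreated 5838 and 5939 CPM. *OAS2* lay at 64.4 and 59.3 CPM at 12 h, 147 and 155 CPM at 24 h and 318 and 298 CPM at 48 h. The summed YAP and TEAD list was 5571 and 4685 CPM at 12 h, 5568 and 5383 CPM at 24 h and 6849 and 6869 CPM at 48 h, all below the untreated libraries. *CCN2* lay at 190.4 and 192 CPM at 24 h and 264 and 264 CPM at 48 h, and *EDN1* at 15.7 and 17.7 CPM at 24 h and 20.5 and 19.8 CPM at 48 h. Among the genes that rose, *IL11* lay at 151 and 257 CPM at 12 h and 102 and 109 CPM at 24 h, *DUSP1* at 268 and 282 CPM at 24 h and 186 and 185 CPM at 48 h, and *PMEPA1* at 27.8 and 25.2 CPM at 24 h. Those levels were nearer to the untreated ones than the 6 h levels were. *PTGES* lay farther from the untreated level than at 6 h, at 239 and 253 CPM at 24 h and 259 and 221 CPM at 48 h. *DUSP6*, not called at 6 h, lay at 586 and 577 CPM at 24 h and 1087 and 1114 CPM at 48 h, and *INHBB*, lower at 6 h, at 108 and 101 CPM at 48 h. *ETS1* lay at 83.3 and 80.9 CPM at 12 h, 86.3 and 77.3 CPM at 24 h and 94.8 and 95.4 CPM at 48 h, below the untreated libraries throughout.

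**Figure D4:**
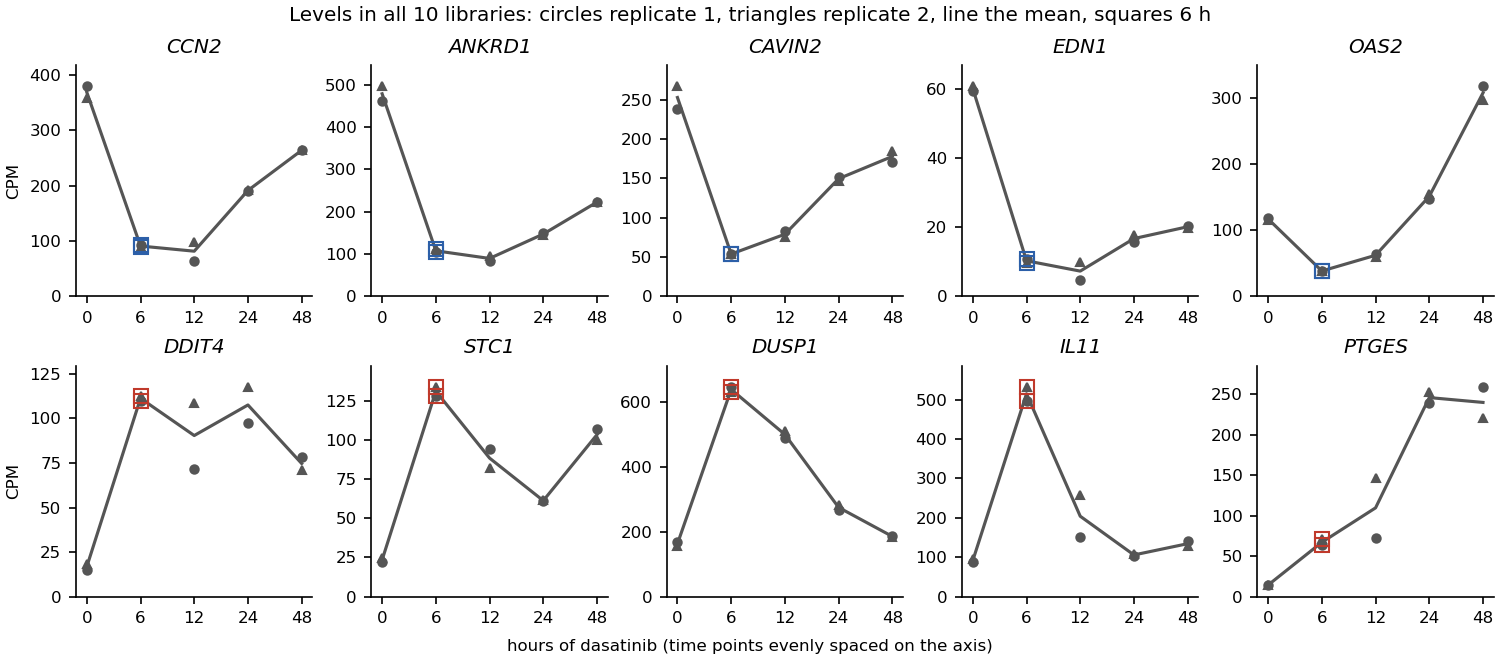
CPM in all 10 libraries against hours of dasatinib (times evenly spaced, 0 h untreated) for 5 genes that fell at 6 h (upper row) and 5 that rose (lower row). Circles are replicate 1, triangles replicate 2, the line joins the means of the 2 replicates and squares mark the 6 h libraries, and *OAS2* lies above its untreated level at 48 h while *IL11* is back near it from 24 h on.

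The genes that were higher and those that were lower differed in base composition and length. The median GC content of the canonical transcripts in GENCODE v44 was 57.1% among the former, 42.3% among the latter and 48.3% over all tested genes, and the median length was 2951, 4548 and 3179 bases. When the genes were ordered by GC content and divided into 5 bins of equal size, 2.05% of the lowest bin were higher and 21.4% lower, and in the highest bin 20.9% were higher and 2.26% lower. The median log2 difference between 6 h and 0 h ran from -0.13 in the lowest bin to 0.18 in the highest, among genes of at least 2 log2 CPM. The replicates of 1 group also differed along GC content, by -0.027 to 0.042 at 0 h and by -0.060 to 0.12 at 6 h over the bins. Whether this trend arose in the cells or in library preparation was not tested. With each library's trend for length and GC content removed, 1215 genes were higher and 1317 lower of 14180, 27 of the YAP and TEAD targets and 42 of the interferon genes were lower, and 18 of the FOXO-type and 17 of the amino acid genes were higher.

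**Figure D5:**
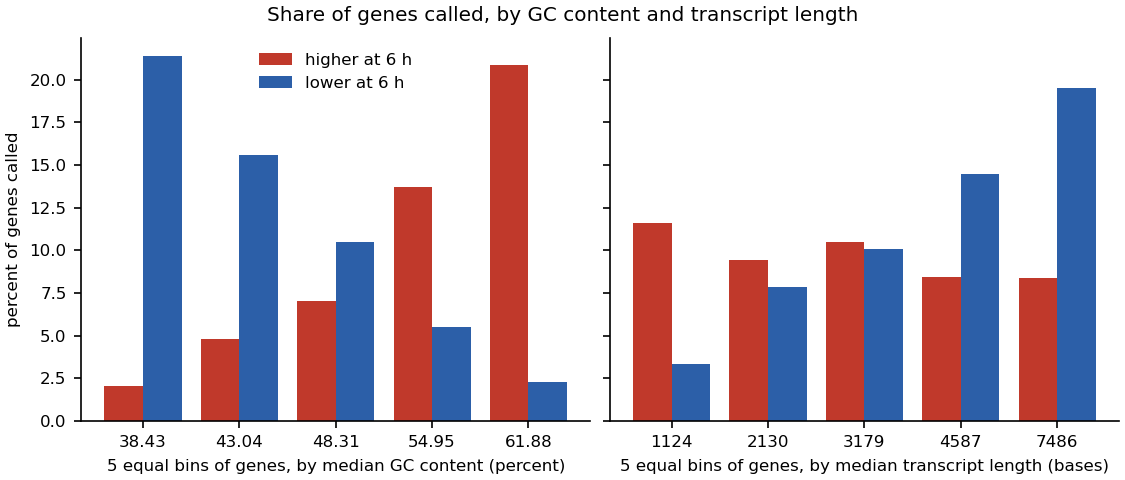
The percentage of genes higher (red) and lower (blue) at 6 h in 5 equal bins of the tested genes by GC content (left, median of each bin in percent) and by transcript length (right, median in bases). The share of genes that were higher climbs from 2.05% to 20.9% with GC content, and the share that were lower climbs from 3.35% to 19.5% with length.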

How the data were processed

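RNA-seq of MDA-MB-231 cells was analysed in 4 libraries, 2 untreated and 2 after 6 h of dasatinib. RNA was made with TRIzol and column clean-up, and the libraries were sequenced as 150-base pairs. The authors deposited raw counts per gene symbol and TPM values. The submitters' processing notes name FastQC, MultiQC, Trim Galore, STAR 2.5.2b, featureCounts and hg38. The annotation and the strand setting are not given in the sources used here, so overlapping, antisense and near-identical genes may share counts. Of counts between 1 and 20, 71.5 to 76.6% were even, against 49.4 to 50.3% of counts over 1000, so the tables appear to count both mates of most pairs.

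Deposited counts were tested with edgeR 4.0.16 in R 4.3.3 (TMM, filterByExpr, robust quasi-likelihood test, Benjamini-Hochberg over all 14476 genes tested, threshold 0.05). CPM were scaled by TMM over all 10 libraries, and a log2 fold change comes from the fit. The labels call the replicates biological and say no more of their source, so p-values measure the spread between these libraries. On simulated counts for 14110 genes the test recovered 80% of genes changed 1.5-fold, 94% of those changed 2-fold and 98% of those changed 4-fold. It also called 9 unchanged genes. The changes were placed in 50, 100 and 50 genes of ample counts. The simulated spread followed the overall trend, without spread particular to a gene or a GC trend. These shares therefore do not give the recovery in the real libraries. DESeq2 1.42.0 and limma 3.58.1 on log2(TPM + 1), for genes with at least 1 TPM in 2 libraries, were alternatives.

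The members and gene lists were chosen with earlier results of these data known. Named genes were the 12 greatest changes in each direction among called genes at 2 log2 CPM or more with non-overlapping groups. Also named were up to 4 members in each direction of each list by adjusted p, genes the study speaks of, and a few readouts. Other list members, such as *YAP1*, *SMAD6*, *SMAD7* and *FOSL1*, were named after their values were seen. The basal B list also held *KRT5* and *KRT14*, which the study gives as basal A traits and which were not tested. Promoter windows were taken from RefSeq, and length and GC content from GENCODE v44, for 98% of the tested genes. The results of some genes are not reported here.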

Additional observations from a re-analysis of the deposited data

How the results depend on the processing

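The number of genes called depended on the libraries that set the spread and on the tool. From 1386 higher and 1580 lower genes, the counts went to 195 and 235 with edgeR on all 10 libraries, to 474 and 499 with DESeq2 on all 10 libraries, and to 1609 and 1601 with edgeR on the 8 libraries of 0, 6, 24 and 48 h. limma on log2(TPM + 1) called 920 and 980, on log2(TPM + 0.1) 892 and 958, and on log2(TPM + 1) with no filter 129 and 230. An adjusted p under 0.01 left 660 and 826, and a change of at least 2-fold 184 and 117. Leaving out each replicate in turn gave 855 to 1618 higher and 1051 to 1569 lower, the lowest in both cases without the second 6 h library. With the replicate number as a block the counts were 1788 and 1972. The labels say nothing of a shared culture, and same-numbered libraries had deviations that correlated at 0.178 over 2 pairs. The cause of these shifts was not tested. With another size factor, with no filter and with DESeq2 on the 4 libraries the counts stayed within 1.5 times. So did they in 2 alternatives chosen after seeing the data, counts divided by 2 (1489 and 1656) and the trend for length and GC content removed (1215 and 1317).

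Of 281 named genes, 0 changed direction in a called result under any of the 16 alternative fits, 163 lost the call with edgeR on all 10 libraries, 107 with DESeq2 on all 10, 168 with unfiltered TPM, and 20 to 47 without single libraries. Of 272 named genes that were called, 59 lost the call without some library. *CCND1* and *VIM* were not called in the fit on 4 libraries and passed in the fit with the block. The groups held 2 replicates, and 10.4 prior degrees of freedom were borrowed across genes. In the simulated counts, with changes only in well-counted genes, 80% of 1.5-fold changes were recovered. Smaller changes were not simulated, and the recovery in the real libraries is not known.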

Other observations

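Among tested genes with a RefSeq type, 12947 were protein coding, of which 1344 were higher and 1529 lower, and 1007 were long non-coding, of which 28 were higher and 38 lower. The long non-coding genes were called in smaller proportion than all genes, of which 9.57% were higher and 10.9% lower. Of the genes called, 134 of those higher and 51 of those lower had an average under 2 log2 CPM.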
